A study of Homo sapiens with 27 samples.

Results

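Karpas422 and OCI-LY1 are human diffuse large B-cell lymphoma lines, both of germinal-centre type, which the study assigned to its OXPHOS and GCB subtypes respectively. They were compared here as they stood before SIRT3 loss, in the 6 control libraries of these lines (3 of Karpas422 and 3 of OCI-LY1) out of 27 libraries in the series. All cells carried a pLKO.1 lentivirus that expressed a scrambled control short hairpin RNA, YFP and puromycin resistance, and RNA was taken on day 8 after infection. The control cells are therefore infected, selected cells and not parental ones. Each line stands for 1 tumour, and the lines were grown in different media, Iscove's medium for OCI-LY1 and RPMI with added L-glutamine and HEPES for Karpas422, so line and medium cannot be told apart in any difference given here. For some genes the mean of the control libraries of HBL1, another line of the series, is given beside them. HBL1 was grown in the same RPMI medium as Karpas422, so a likeness of these lines may also be that of medium. What the replicate numbers stand for is not given in the sources used here, and a p-value therefore measures the spread between these libraries, which may be technical. Genes with at least 1 CPM (reads of a gene scaled to the size of its library) in at least 3 of the 6 libraries were compared, which left 11621 of the 27115 genes listed. CPM is not divided by gene length, so a level is compared between lines for 1 gene and not between genes.

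Germinal-centre B cells are antigen-activated B cells that divide fast, mutate their immunoglobulin genes and are selected by their display of antigen on MHC class II to helper T cells. BCL6 holds this programme in place, and cells leave it through NF-kappaB signalling, CD40 and plasma cell factors. Lymphomas that arise from these cells keep part of the programme and lose other parts by mutation, among which loss of antigen presentation is well known.

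The libraries held between 42137546 and 50147928 reads on genes. On the log2(CPM + 0.1) scale used for all tests, Pearson's r across genes was between 0.986 and 0.993 within Karpas422, between 0.980 and 0.984 within OCI-LY1 and between 0.635 and 0.653 across the lines (genes are not independent replicates). SIRT3, the mitochondrial deacetylase that the study later depleted, stood at 9.99, 9.14 and 10.2 CPM in the Karpas422 libraries and at 10.7, 13.8 and 9.98 CPM in the OCI-LY1 libraries. Its ranges overlapped and the difference (Karpas422 minus OCI-LY1) was -0.22 ± 0.16 on the log2 scale (SE, limma adjusted p = 0.27, 95% interval from -0.58 to 0.15). In the 12 SIRT3 hairpin libraries of these lines it was between 1.06 and 6.24 CPM, below every control library. The B-cell markers MS4A1 (CD20), CD79A, CD79B and PAX5 were present in all 6 libraries, from 144 CPM for MS4A1 upwards. Of 35 markers of other cell types, 29 did not reach the level needed for a test. CD3G, a chain of the T-cell receptor complex, was the exception by level, at 36.4, 35.8 and 41.4 CPM in Karpas422 and 0.0103, 0.026 and 0.0498 CPM in OCI-LY1. Its partner CD3D was at 1.59, 1.44 and 1.45 CPM in Karpas422, CD3E at 0.366, 0.233 and 0.473 CPM. CD2 was at 0.00938, 0 and 0.00928 CPM. Summed over the 8 T-cell markers, Karpas422 held between 37.8 and 43.8 CPM and OCI-LY1 between 0.0828 and 0.199 CPM, nearly all of it CD3G in Karpas422. Single libraries stood apart in 2 gene groups, Karpas422 replicate 1 with high interferon-stimulated genes and OCI-LY1 replicate 2 with high amino acid response genes, and both groups are given with and without them. Summed markers of fibroblasts and epithelium stayed at or below 0.0931 CPM in every library, and the 6 erythroid and megakaryocyte markers at or below 0.395 CPM.

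A gene was called when the fold between lines was above 1.5 and the Benjamini-Hochberg adjusted p of limma was under 0.05. By this rule 5961 of 11621 genes (51.3%) differed between the lines, 3354 of them higher in Karpas422 (28.9% of genes tested) and 2607 higher in OCI-LY1 (22.4%). The median difference over all genes was 0.10 on the log2 scale, and scaling by the median ratio moved it to -0.004, with 50.7% in place of 56.3% of the calls then higher in Karpas422. The groups did not overlap in 5887 of the called genes, against 8071 of all genes tested (69.5%). No overlap was thus the rule among called genes, and where it is given below for such genes it adds nothing to the call. Calls of at least 4-fold numbered 932 in Karpas422 and 885 in OCI-LY1. Genes under 1 CPM in all libraries of a line entered the test only through the other line and almost had to differ, which was so for 636 genes through Karpas422 (635 called) and 603 through OCI-LY1 (599 called). Among the 10382 genes that reached 1 CPM in at least 1 library of each line, 4727 were called. These shares of all genes, 28.9% higher in Karpas422 and 22.4% in OCI-LY1, are the background of every count of list members given below. Levels are given below in the order of replicates 1, 2 and 3, and a pair of values joined by "against" is Karpas422 against OCI-LY1. In the tested genes given by library, the ranges of the lines overlapped for SIRT3, ATF4, PSAT1, MX2, BHLHE41 and CHAC1 and for no other. In bulk RNA, fewer cells that express a gene and less RNA per cell cannot be told apart.

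**Figure D1:**
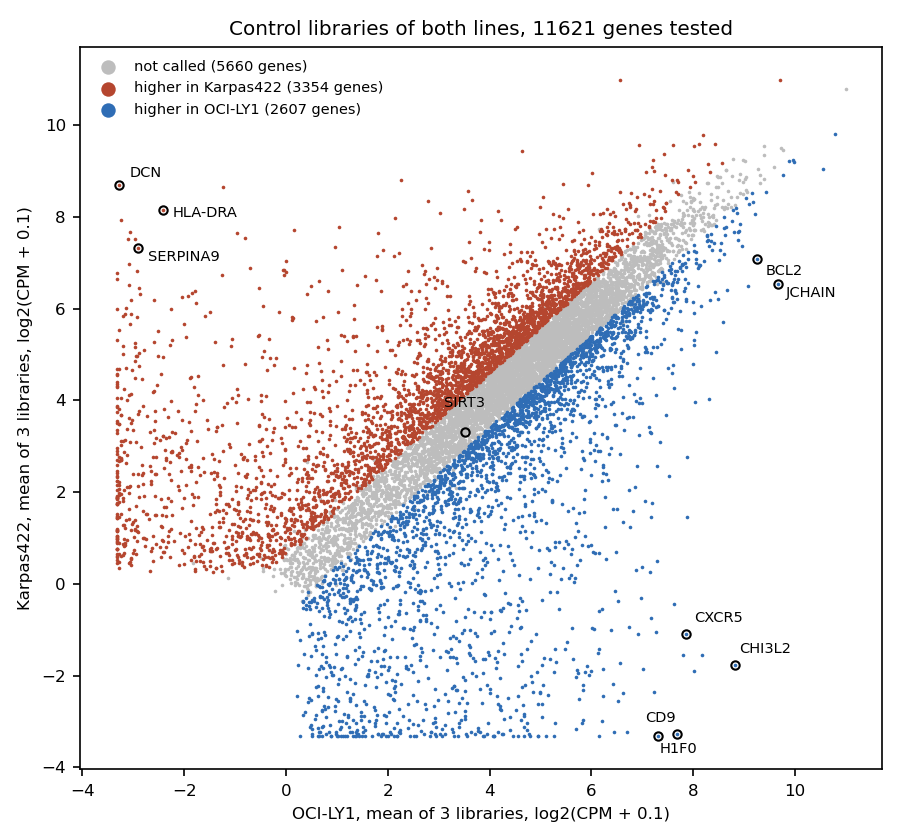
Mean log2(CPM + 0.1) of the 3 OCI-LY1 control libraries (horizontal axis) against that of the 3 Karpas422 control libraries (vertical axis), 1 point per gene tested. Red and blue points are genes called higher in Karpas422 (3354) and in OCI-LY1 (2607), grey points were not called, and circled genes are described in the text; both arms hold genes that lie at the floor of the scale in the other line.

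The 12 largest differences in favour of Karpas422 included 3 MHC class II chains, genes of muscle and matrix, and single genes of other kinds. DCN, which encodes the matrix proteoglycan decorin, led them at 401, 423 and 416 CPM in Karpas422, against 1 read over the 3 OCI-LY1 libraries, a ratio of 129200 with a counting interval from 23190 to 5103000. TNNI1, a troponin of slow muscle, was at 206, 165 and 429 CPM in Karpas422, against 2 reads in OCI-LY1, and FNDC1, a fibronectin-domain protein, was at 211, 174 and 224 CPM against 0.0103, 0.0519 and 0 CPM. These muscle and matrix genes came without the fibroblast markers, which were at the floor as given above. MYBPH, a muscle myosin-binding protein (126, 97.9 and 105 CPM), and NLGN4X, a neuronal adhesion protein (102, 98 and 98.9 CPM), had no read in any OCI-LY1 library and were at least 11440-fold and at least 10380-fold higher in Karpas422, with 3 reads over the group as the floor. In the same way POMGNT2, a glycosyltransferase, was at least 6582-fold higher (68.2, 59.4 and 61.6 CPM), the phosphatase PTPRT at least 4117-fold (40.6, 38.4 and 39.4 CPM), the kinase RPS6KA6 at least 2681-fold (24, 24.3 and 28.8 CPM) and the connexin GJA3 at least 2496-fold (20.3, 27.2 and 24.6 CPM). They belong to 18 genes that were at 10 CPM or more in Karpas422 and at 0 in all OCI-LY1 libraries. SPX, a secreted peptide, MAMLD1 and GRAMD1B, a sterol transfer protein, completed the set, with 393, 534 and 308 CPM, 106, 92.3 and 148 CPM and 94.5, 78.1 and 104 CPM in Karpas422 and at most 1.47 CPM in any OCI-LY1 library. The remaining members, SERPINA9 and the 3 class II chains, are given with their groups.

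OCI-LY1 had a set of its own, with surface, signalling and chromatin proteins among it. H1F0, the replacement linker histone H1.0, stood at 171, 347 and 143 CPM in OCI-LY1 and at 1 read over the Karpas422 libraries, a ratio of 71120 with a counting interval from 12760 to 2809000. CD9, a tetraspanin of the cell surface, was at 192, 154 and 133 CPM and at 0 in all Karpas422 libraries, at least 16590-fold higher. CHI3L2, a chitinase-like secreted protein, was at 0.319, 0.192 and 0.102 CPM against 471, 385 and 504 CPM, and TCL1B, of the TCL1 oncogene family, at 0.159, 0.253 and 0.111 CPM against 249.7, 235 and 290.2 CPM. The bone morphogenetic protein BMP7 was at 0.319, 0.395 and 0.0928 CPM against 228, 444 and 238 CPM. SMAD1, which carries the signal of such ligands, had 2 reads over the Karpas422 libraries and was at 98.8, 118 and 56.6 CPM in OCI-LY1. The ligand and its signal carrier were thus at or near the floor in Karpas422. LEF1, the transcription factor at the end of the Wnt pathway, was at 0.103, 0.203 and 0.0186 CPM against 130.3, 207 and 127 CPM. ST14 (a membrane protease), RUBCNL (a regulator of autophagy) and FCGBP (an IgG-binding mucin-like protein) were at 232, 229.9 and 208 CPM, 92.2, 89.2 and 49 CPM and 69.5, 123 and 89.1 CPM, with no Karpas422 library above 0.576 CPM. Among the 17 genes at 10 CPM or more in OCI-LY1 and at 0 in all Karpas422 libraries were also TC2N (77.1, 63.3 and 71.5 CPM), the gluconeogenic enzyme FBP1 (45.6, 41.3 and 29.4 CPM), the adhesion protein CADM1 (32.7, 38.7 and 32.1 CPM), the lymphocyte receptor CD96 (32.6, 38.4 and 23 CPM) and the lipase LIPG (27.9, 18.9 and 39.5 CPM). Their lower bounds ran from 2957-fold for LIPG to 7327-fold for TC2N. In HBL1, the third line of the series, the control mean of LEF1 was 58.8 CPM and that of RUBCNL 496 CPM, whereas DCN, CD9, BMP7 and H1F0 stayed under 0.1 CPM there.

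Of the genes called at 4-fold or more, among those that took the most reads in Karpas422, a measure that also grows with gene length, were FCRLB, SLC7A5, MTHFD2, WARS and TSC22D3. FCRLB, an Fc receptor-like protein of germinal-centre B cells, was at 736, 707 and 634 CPM against 24, 20.1 and 31.9 CPM. TSC22D3 (GILZ), a glucocorticoid-induced regulator, was at 372, 453 and 526 CPM against 1.6, 14.6 and 4.32 CPM. In OCI-LY1 they were JCHAIN, BCL2, UCP2, CHI3L2, UBE2H and MAP4K4. JCHAIN, which joins secreted IgM and IgA, was at 94.2, 76.9 and 108 CPM against 851, 799 and 776 CPM. UCP2, an uncoupling protein of the inner mitochondrial membrane, was at 107, 77.4 and 88.8 CPM against 582, 456 and 597 CPM, UBE2H, a ubiquitin-conjugating enzyme, at 76.8, 111 and 71 CPM against 341, 454 and 437 CPM, and the kinase MAP4K4 at 51.4, 58 and 46.9 CPM against 393, 410.5 and 352 CPM.

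**Figure D2:**
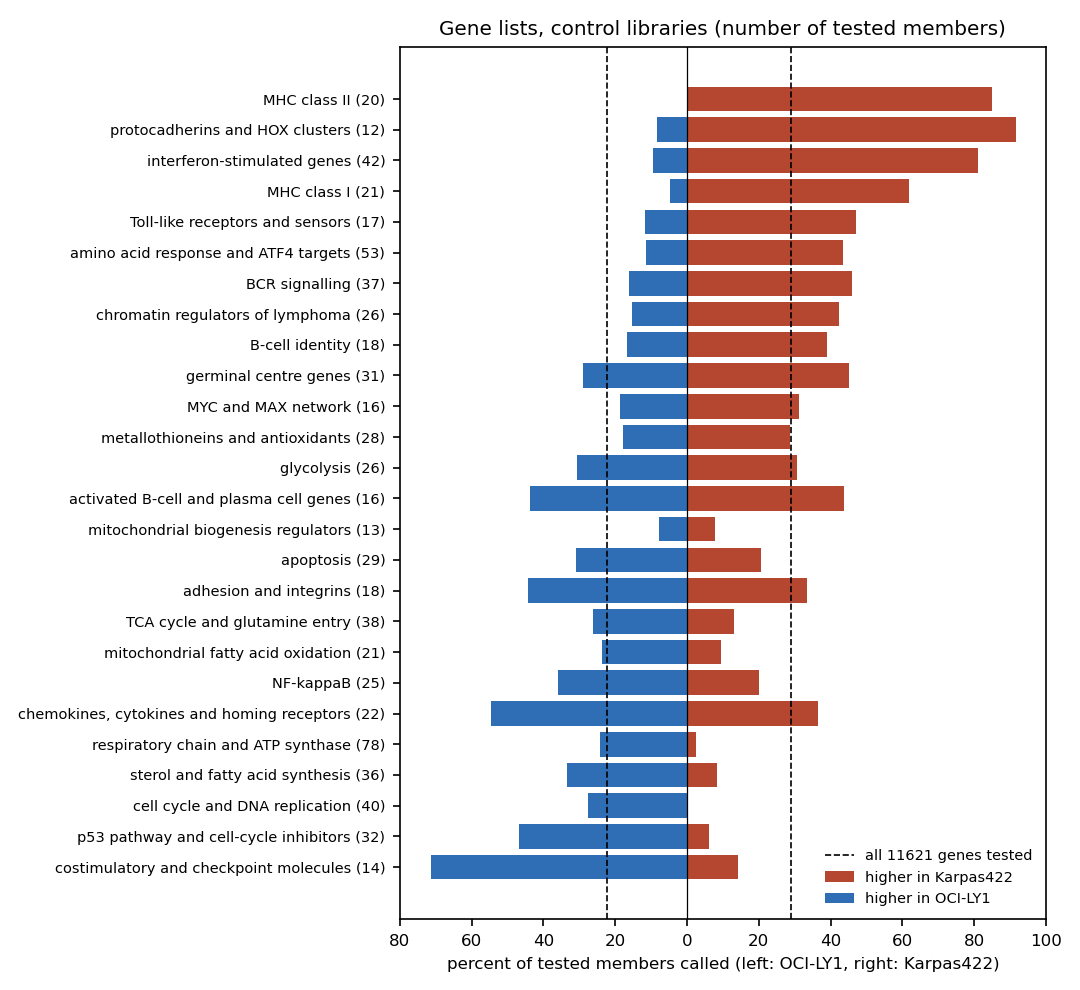
For each gene list with at least 10 tested members, the percent of tested members called higher in Karpas422 (red, to the right) and in OCI-LY1 (blue, to the left); dashed lines are the shares over all 11621 genes (28.9% and 22.4%) and the number tested is in brackets. MHC class II, protocadherin and HOX, and interferon-stimulated genes lie farthest to the Karpas422 side, and costimulatory molecules, chemokines, cytokines and homing receptors, and p53 pathway genes farthest to the OCI-LY1 side. Some members entered the test only through 1 line and almost had to differ. Through Karpas422 these were 10 MHC class II and 12 interferon-stimulated genes, and through OCI-LY1 6 chemokines, cytokines and homing receptors.

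Of the gene lists, MHC class II had the largest median difference between the lines. The class II molecules are pairs of alpha and beta chains (DR, DP, DQ) that display peptides to CD4 T cells, HLA-DM and HLA-DO edit the peptide, CD74 (the invariant chain) and CTSS guide and trim, and CIITA with the RFX factors switches the genes on. All 20 listed genes were tested, 17 were higher in Karpas422 and none in OCI-LY1, against the background of 28.9% and 22.4% of all genes; 10 of the 20 entered the test only through Karpas422. The median difference over the list was 5.19 on the log2 scale, against 0.10 over all genes. HLA-DRA was at 273, 284 and 286 CPM in Karpas422 and at 0.0103, 0.268 and 0.0597 CPM in OCI-LY1, a log2 difference of 10.56 ± 0.38 (limma adjusted p = 4.8e-08). HLA-DPA1 was at 201, 175 and 173 CPM against 0, 0.113 and 0 CPM. In both genes OCI-LY1 was at the floor of the measurement. HLA-DRB1 was at 89.2, 94.4 and 80.1 CPM against 0.0103, 0.0866 and 0.0199 CPM. HLA-DRB5 was at 131, 129.5 and 117 CPM against 0.0103, 0.0346 and 0.00995 CPM. HLA-DQA1 was at 72.2, 71.4 and 73.6 CPM against 0.0103, 0.0346 and 0.0199 CPM. All 13 chains were higher in Karpas422, and in no chain did the groups overlap, as in 5887 of all 5961 called genes. The peptide editor HLA-DM was lower in OCI-LY1 but not at the floor, with HLA-DMA at 87.2, 87.6 and 96.3 CPM against 8.27, 7.54 and 11 CPM. HLA-DMB was at 46, 48.9 and 34.5 CPM against 2.01, 2.48 and 1.66 CPM. CIITA was at 55.5, 54 and 41.7 CPM against 6.2, 5.8 and 9.76 CPM (log2 difference 2.81 ± 0.21), and CD74 at 943, 825 and 889 CPM against 362, 250.4 and 274 CPM. Of the RFX factors RFXAP was called higher in Karpas422 at 12.5, 11.9 and 13.5 CPM against 4.5, 7.61 and 4.11 CPM, while RFX5 (means 108 and 84.3 CPM) and RFXANK (25.5 and 35.2 CPM) were not called. In HBL1 the control mean of HLA-DRA was 151 CPM and that of CIITA 43.5 CPM, both nearer to Karpas422, which was grown in the same medium. HLA genes are highly variable between people and similar to each other, and reads of HLA-DRB1 and HLA-DRB5, or of the DQ1 and DQ2 genes, could be split between them in the counting, so the levels of single chains are uncertain.

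**Figure D3:**
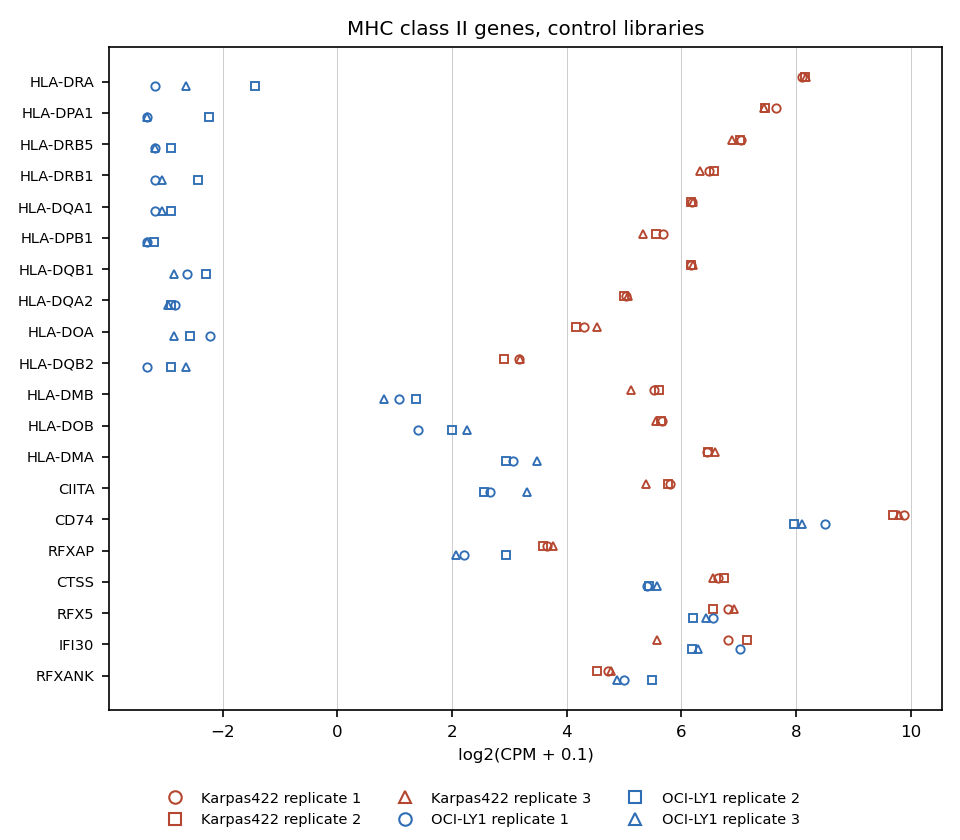
log2(CPM + 0.1) of the 20 MHC class II genes in each control library, Karpas422 in red and OCI-LY1 in blue, ordered by the difference between lines. The 13 chains lie apart in all libraries, 10 of them near the lower limit of the scale in OCI-LY1, while the 3 genes at the bottom, which were not called, lie close together.

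The promoters of class II genes share a short module that ends in the Y box, read by NF-Y. The letters CTGATTGG, an inverted CCAAT box, were searched on both strands of the RefSeq promoter windows (GRCh38.p14, 250 bases before to 50 after the start). Of the 20 genes 17 matched a window, and 7 of these (41.2%) held the letters, against 1298 of 27305 genes with a window (4.75%), or 1393 of all 35116 windows (3.97%). HLA-DRA and HLA-DPA1, which had the widest differences of the list, were not among the 7, and 3 of the 20 genes had no window. The windows of 4 of the 7 are shown, with the matched letters in capitals, and RFX5, which was not called, is given beside them on the opposite strand of its window:
HLA-DRB1, chr6:32589880-32589907 (minus strand): aactcagatgCTGATTGGttctccaaca
HLA-DRB5, chr6:32530363-32530390 (minus strand): aactcagatgCTGATTGGttctccaaca
HLA-DQB1, chr6:32666731-32666758 (minus strand): agctccagtgCTGATTGGttcttttccg
HLA-DMA, chr6:32953162-32953189 (minus strand): ctacgcttctCTGATTGGtttagacaaa
RFX5, chr1:151347412-151347439 (minus strand): cccctattgaCCAATCAGattctgttac
The windows of HLA-DRB1 and HLA-DRB5 were identical in the letters printed. HLA-DMA, which kept 8.27, 7.54 and 11 CPM in OCI-LY1, held the same letters as the chains that were near 0 there. A match is a description of the reference sequence, and neither binding nor methylation was measured.

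MHC class I moved the same way to a smaller degree. These molecules show peptides from inside the cell to CD8 T cells, with B2M as the constant chain, TAP1 as the peptide pump and NLRC5 as their activator. Of 23 genes 21 were tested, with 13 higher in Karpas422 and 1 in OCI-LY1, and a median log2 difference of 1.11. B2M was at 929.6, 756 and 608 CPM against 180.3, 197 and 202 CPM (log2 difference 1.96 ± 0.18, limma adjusted p = 1.8e-05). HLA-B was at 195, 158 and 109.6 CPM against 26.6, 17.9 and 19.2 CPM. HLA-E was at 165, 136 and 112 CPM against 9.37, 10.1 and 20 CPM. OCI-LY1 kept a clear level of these constant and heavy chains, unlike 10 of its 13 class II chains, which stayed under 1 CPM in all its libraries. NLRC5 was at 50, 35 and 23.9 CPM against 1.46, 2.1 and 1.53 CPM. MR1, which presents vitamin metabolites to a class of T cells, was at 19.9, 28.6 and 19.8 CPM against 0.0103, 0.0606 and 0.0199 CPM. The groups overlapped in none of these genes, as was the rule among called genes (5887 of 5961). The aminopeptidase ERAP1 went the other way, at 42.9, 35.1 and 48.3 CPM against 76.3, 69.1 and 79.6 CPM, and CANX and TAP2 were not called, with means of 158 and 109 CPM for TAP2.

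Interferon-stimulated genes are the antiviral effectors (IFIT, OAS, MX and IFI families) and the sensors and factors (STAT2, IRFs, IFIH1) that interferon induces through the ISGF3 complex. Of 48 listed genes 42 were tested, 12 of them only through Karpas422, and 34 were higher in Karpas422 and 4 in OCI-LY1, with a median log2 difference of 2.44. The Karpas422 libraries were far from even: replicate 1 held a summed 3629 CPM over the list, replicate 2 1530 CPM and replicate 3 1046 CPM, against 617, 582 and 536 CPM in OCI-LY1. In 38 of the 42 genes Karpas422 replicate 1 was the highest of its group, as it was in 21.5% of all genes tested. Without that library 31 genes were higher in Karpas422 and 6 in OCI-LY1, and the median was 2.08. IFI44, an antiviral effector, was at 109.9, 41.5 and 10.8 CPM against 0.0931, 0.147 and 0.0796 CPM, a log2 difference of 7.49 ± 0.68 that became 6.70 ± 0.51 without Karpas422 replicate 1 (limma adjusted p = 1.7e-05 and 1.3e-05). CMPK2, a mitochondrial nucleotide kinase, was at 81.2, 22 and 15.9 CPM against 0.0931, 0.0606 and 0.11 CPM. RSAD2 (viperin) was at 40.2, 7.36 and 5.46 CPM against 0.0414, 0.0173 and 0.00995 CPM. LGALS3BP, a secreted glycoprotein, was at 52.7, 18.6 and 20.9 CPM against 0.31, 0.398 and 0.269 CPM. For each of these the lowest Karpas422 library lay above the highest OCI-LY1 library, and such a gap was the rule among called genes. IFIH1 (MDA5), a sensor of double-stranded RNA, was the opposite, at 3.67, 0.931 and 0.399 CPM in Karpas422 and 17.4, 14.9 and 11.6 CPM in OCI-LY1 (log2 difference -3.54 ± 0.61). IRF5 was at 5.22, 4.69 and 6.17 CPM against 12.9, 13.6 and 11.1 CPM. MX2 (46.6, 14.8 and 15.3 against 45.8, 45 and 40.2 CPM) and IRF2 (34.2, 35 and 20 against 40.9, 50.1 and 44 CPM) were also called higher in OCI-LY1, at limma adjusted p values of 0.049 and 0.028, and in MX2 the groups overlapped through Karpas422 replicate 1. Without that library IFITM2, OAS3 and ISG20 were no longer called, and IFIT5 and IFI16 were called higher in OCI-LY1.

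The interferon-stimulated response element, spelled GAAA, any 2 bases and GAAA, was searched in the same promoter windows on both strands. It was present in 23 of the 34 list members with a window (67.6%), against 1195 of 27305 genes with a window (4.38%), or 1255 of all 35116 windows (3.57%). Of the genes higher in Karpas422 16 of 24 held it, as did 1 of 2 genes higher in OCI-LY1 and 2 of 4 that were not called. These windows are from the genes just described, from IFIT1 and IFIT3, and from BST2, which was not called; 1 match of each gene is shown, with its letters in capitals (TTTC at both ends where the match is on the other strand):
IFI44, chr1:78649761-78649788 (plus strand): gcacactgagTTTCAGTTTCctttctct
RSAD2, chr2:6877622-6877651 (plus strand): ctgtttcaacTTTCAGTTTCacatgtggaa
LGALS3BP, chr17:78979962-78979991 (minus strand): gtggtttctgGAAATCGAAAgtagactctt
IFIT1, chr10:89392497-89392526 (plus strand): ctagctttagTTTCACTTTCccctttcggt
IFIT3, chr10:89327865-89327894 (plus strand): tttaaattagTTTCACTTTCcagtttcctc
BST2, chr19:17405741-17405770 (minus strand): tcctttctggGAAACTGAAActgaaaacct
IFIH1, chr2:162318686-162318715 (minus strand): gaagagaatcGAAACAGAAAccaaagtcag
IFIT1 was at 32.5, 4.62 and 2.71 CPM in Karpas422 and 0.135, 0.19 and 0.11 CPM in OCI-LY1, and IFIT3 at 29.9, 5.5 and 4.6 CPM and 0.0517, 0.251 and 0.0597 CPM. BST2 (tetherin) had means of 52.5 and 35 CPM. The match printed for IFIH1, which was higher in OCI-LY1, ends 12 bases before its start. A match is a description of these letters and no site of a factor.

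**Figure D4:**
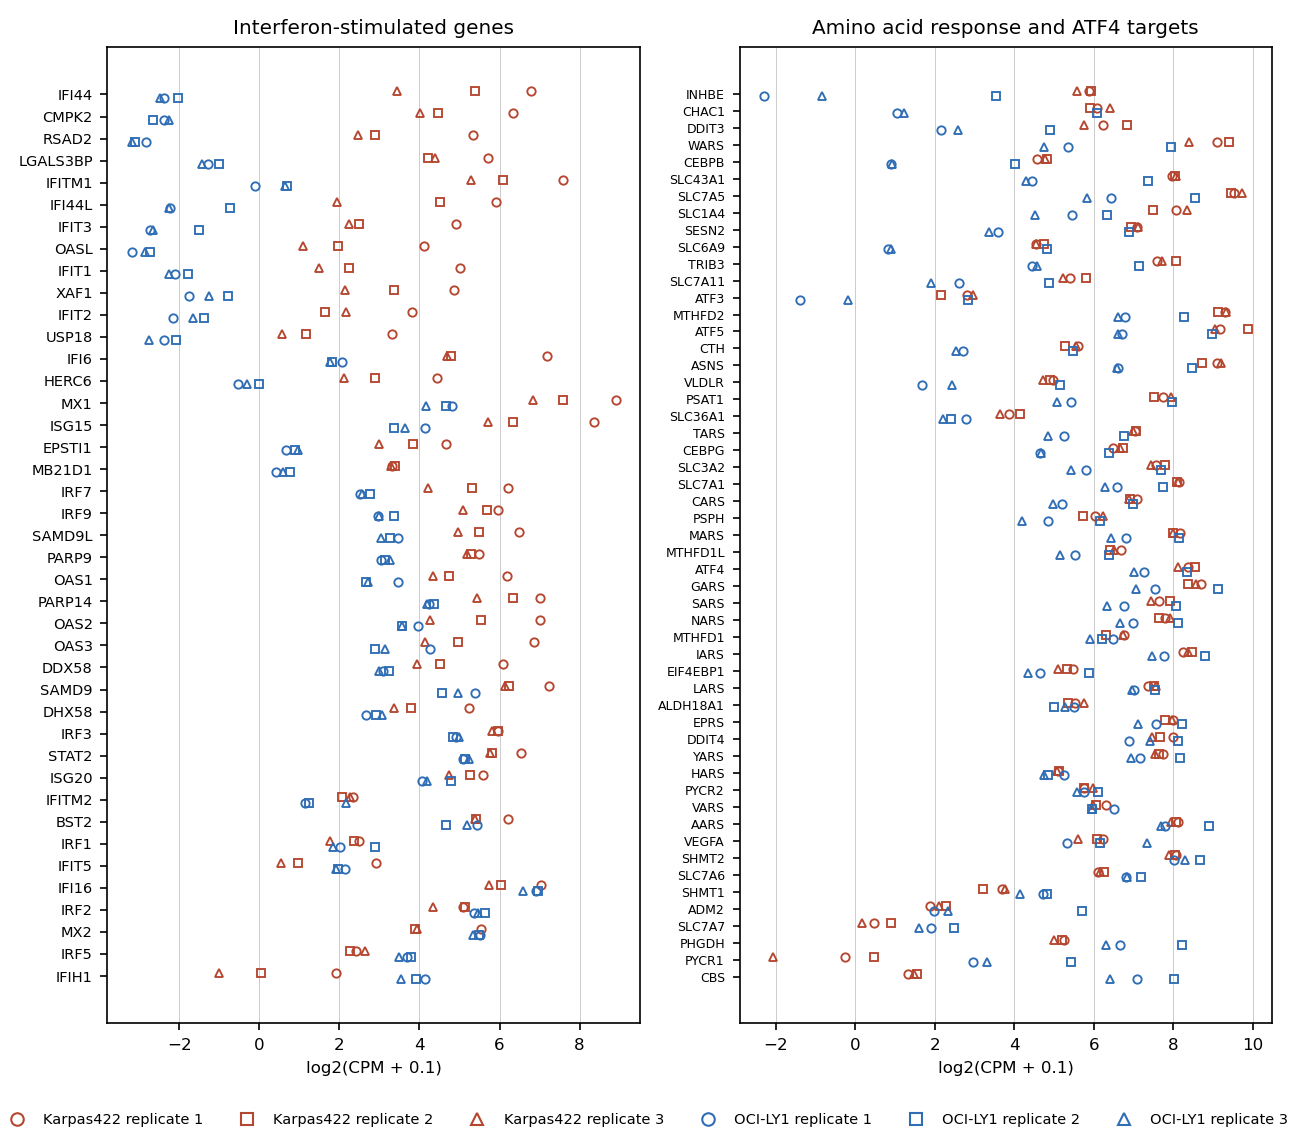
log2(CPM + 0.1) of the tested interferon-stimulated genes, all but 1 of which are drawn (left), and of amino acid response genes and ATF4 targets (right) in each control library, Karpas422 in red, OCI-LY1 in blue, circles for replicate 1, squares for replicate 2 and triangles for replicate 3, ordered by the difference between lines. Red circles lie to the right of the other red symbols in most interferon-stimulated genes, and blue squares to the right of the other blue symbols in most ATF4 targets.

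NF-kappaB genes were called in both directions. NFKB1, NFKB2, RELA, RELB and REL are the subunits, BCL3 and TNFAIP3 (A20) are a cofactor and a brake that the pathway itself induces, and TRAF3 with BIRC2 and BIRC3 controls the stability of MAP3K14 (NIK). Of 30 genes 25 were tested, with 5 higher in Karpas422 and 9 in OCI-LY1 (36.0%, against 22.4% of all genes). Among the subunits and inhibitors 4 were higher in Karpas422 and 6 in OCI-LY1, and among the targets 1 and 3. BIRC3 was at 3.18, 2.3 and 2.55 CPM in Karpas422 and 206, 305 and 208 CPM in OCI-LY1, a log2 difference of -6.42 ± 0.19 (limma adjusted p = 1.9e-08). TNFAIP3 was at 0.441, 1.01 and 0.427 CPM against 11.1, 9.74 and 15.4 CPM. In both genes every OCI-LY1 library lay above every Karpas422 library, which was the rule among called genes. BCL3 was at 0.131, 0.213 and 0.0371 CPM against 8.05, 13.7 and 8.46 CPM. RELB was at 2.61, 3.07 and 2.41 CPM against 23.6, 42.6 and 24.3 CPM. In Karpas422 PLEK, a protein kinase C substrate, was higher at 344, 316 and 311 CPM against 8.03, 20 and 1.93 CPM, as were TRAF1 (44.6, 43.5 and 37.7 against 5.66, 7.87 and 6.98 CPM), TRAF3 (128, 131 and 126 against 26.6, 32.3 and 21.8 CPM) and the kinase CHUK (59.4, 58.9 and 59.4 against 18, 16.3 and 14.8 CPM). TNIP1 and TNFAIP8 were not called, with means of 103 and 144 CPM for TNIP1. The control mean of TNFAIP3 in HBL1, a line of the activated B-cell type, was 116 CPM and that of BIRC3 47.7 CPM, so for BIRC3 OCI-LY1 was the highest of the lines.

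Surface molecules for talk with T cells were mostly higher in OCI-LY1. Of 31 costimulatory and checkpoint molecules 14 were tested, 2 higher in Karpas422 and 10 in OCI-LY1 (71.4%, against 22.4% of all genes), with a median log2 difference of -1.89. CD70, the ligand of CD27, was at 2.72, 3.05 and 2.95 CPM in Karpas422 and 102, 102 and 138 CPM in OCI-LY1. ICOSLG was at 2, 2.56 and 0.836 CPM against 41.3, 43.6 and 32.9 CPM. These ligands were low in every Karpas422 library. CD48 was at 2.15, 2.09 and 1.56 CPM against 21.2, 23.2 and 36.3 CPM. CD40, the receptor for T-cell help, was at 2.35, 1.7 and 2.31 CPM against 32.3, 21.5 and 32.8 CPM. TNFRSF13C, the receptor for the survival factor BAFF, was the clearest exception at 22.4, 23.5 and 16.1 CPM against 1.74, 2.86 and 4.44 CPM, and CD58, a ligand for T and NK cells, was at 1.06, 1.1 and 1.48 CPM against 0.714, 0.597 and 0.667 CPM.

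Among 39 chemokines, cytokines and homing receptors, 22 were tested, with 8 higher in Karpas422 (36.4%, against 28.9% of all genes) and 12 in OCI-LY1 (54.5%, against 22.4%). Of the 22, 6 entered the test only through OCI-LY1, all of them receptors, and 1 only through Karpas422. Such genes almost had to differ, so the counts were in part set by the filter. The homing receptors GPR183 (EBI2) and CXCR5, which guide B cells to the follicle edge and into the follicle, were at 127, 92.3 and 95.7 CPM and 209, 243 and 246 CPM in OCI-LY1. In Karpas422 GPR183 had 2 reads in all and CXCR5 was at 0.225, 0.506 and 0.418 CPM. The interleukin receptors IL2RA (14.7, 24.1 and 18.9 CPM) and IL7R (36.7, 14.1 and 6.07 CPM) had 1 read and no read in Karpas422, IL4R was at 3.25, 2.8 and 2.97 CPM against 86.8, 105 and 68.1 CPM and their shared chain IL2RG at 1.76, 1.89 and 1.4 CPM against 68.9, 57.4 and 58.1 CPM. IL7R varied 6-fold among the OCI-LY1 libraries. Karpas422 instead had the cytokines TNF at 66.2, 69.3 and 16.2 CPM against 1.22, 0.398 and 0.388 CPM. LTA was at 83.2, 127 and 28.5 CPM against 2.05, 2.78 and 2.5 CPM, with replicate 3 the lowest of the Karpas422 libraries for both. Of the adhesion genes, ITGB2 was higher in Karpas422 at 131, 164 and 69.1 CPM against 0.983, 3.82 and 2.18 CPM, while ITGAL, the alpha chain that pairs with it as LFA-1, was higher in OCI-LY1 at 2.6, 2.43 and 1.87 CPM against 119.8, 92 and 117 CPM, and its ligand ICAM1 was at 0.403, 0.486 and 0.325 CPM against 13.7, 10.6 and 9.5 CPM. ITGB3 was at 7.85, 7.28 and 8.25 CPM against 0.279, 0.242 and 0.667 CPM and the lymphocyte integrin chain ITGB7 at 68.4, 45.7 and 82 CPM against 14.2, 10.4 and 9.76 CPM. Of the 8 integrins tested 5 were higher in Karpas422 and 1 in OCI-LY1, and of the 10 other adhesion proteins 1 and 7. The background was 28.9% and 22.4% of all genes. Among the integrins 1 entered the test only through Karpas422, and among the other adhesion proteins 4 entered only through OCI-LY1. The split of the adhesion genes was thus also set in part by the filter.

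Genes of B-cell identity were expressed in both lines. All 18 were tested, and 7 were higher in Karpas422 (38.9%, against 28.9% of all genes) and 3 in OCI-LY1 (16.7%, against 22.4%). The widest of these calls by far was CD72, a coreceptor that restrains the B-cell receptor, at 1.84, 1.58 and 1.21 CPM against 67.9, 55.2 and 75.2 CPM. The next was BCL11A, a transcription factor, at 5.05-fold, with 50.5, 39 and 42 CPM against 6.96, 8.84 and 10.1 CPM. MS4A1 was at 549.7, 436 and 472 CPM against 252, 147 and 144 CPM. PAX5, which fixes B-cell fate, was at 489, 442 and 378 CPM against 205, 207 and 208 CPM. POU2AF1, CD22 and CD79A were not called, with means of 646 and 672 CPM, 389 and 511 CPM, and 310 and 346 CPM.

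The germinal-centre programme was present in both lines, with its members unevenly divided. Of 33 genes 31 were tested, 14 were higher in Karpas422 (45.2%, against 28.9% of all genes) and 9 in OCI-LY1 (29.0%, against 22.4%). SERPINA9 (centerin), a protease inhibitor of germinal-centre B cells, was at 149, 95 and 283 CPM in Karpas422 and 0.0207, 0.0779 and 0.00995 CPM in OCI-LY1. NEK6, a mitotic kinase, was at 94.1, 82.2 and 92.9 CPM against 1.4, 1.1 and 1.43 CPM, the death receptor FAS at 42.7, 34.4 and 42.9 CPM against 1.4, 2.41 and 1.33 CPM and the transcription factor HHEX at 19.3, 25 and 13.6 CPM against 0.869, 1.32 and 1.37 CPM. BCL6 was well expressed in both, at 758, 682 and 793 CPM against 258, 240.4 and 275 CPM (log2 difference 1.53 ± 0.15, limma adjusted p = 2.6e-05). The members higher in OCI-LY1 included CXCR4, which keeps cells in the dark zone, at 2.58, 2.55 and 5.5 CPM against 140.4, 256 and 88 CPM. ID3, an inhibitor of E proteins, was at 0.994, 1.1 and 0.891 CPM against 53, 41 and 47.3 CPM. Karpas422 was low for both in every library. BACH2, a repressor of plasma cell fate, was at 35.9, 31.8 and 54.1 CPM against 232, 278 and 272 CPM. EZH2, the histone methyltransferase of the germinal centre, was not called, at means of 88.1 and 90.2 CPM.

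Genes that mark activated B-cell lymphomas and plasma cells divided by kind. Of 27 genes 16 were tested, 7 higher in each line (43.8%, against 28.9% of all genes in Karpas422 and 22.4% in OCI-LY1). All 5 transcription factors tested were higher in Karpas422 (against 28.9% of all genes), and 1 of them entered the test only through Karpas422. Among them XBP1, the factor of the secretory programme, was at 86.3, 72.2 and 98.3 CPM against 19.4, 29.3 and 12.6 CPM. NR4A1 was at 4.31, 10.2 and 3.79 CPM against 0.559, 0.64 and 0.946 CPM. BHLHE41 was at 4.67, 5.09 and 1.06 CPM against 0.331, 0.147 and 1.12 CPM. SDC1 (CD138), a plasma cell surface protein, was at 8.6, 7.84 and 9.88 CPM against 0.0724, 0.0606 and 0.11 CPM. Of the 8 kinases, cyclins and enzymes tested 6 were higher in OCI-LY1 (75.0%, against 22.4% of all genes), and 2 of the 8 entered only through OCI-LY1. The division by kind thus rests on few genes and in part on the filter. PIM1 was at 3.17, 4.23 and 2.9 CPM against 106, 195 and 113 CPM. PIM2 was at 18.2, 21.4 and 18.5 CPM against 46.5, 99.3 and 79.9 CPM. CYB5R2 was at 0.00938, 0.0506 and 0.0371 CPM against 6.63, 7.72 and 8.39 CPM. In HBL1 the control means of PIM1 and PIM2 were 1219 and 581 CPM, above both lines.

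Of 37 B-cell receptor signalling genes tested 17 were higher in Karpas422 (45.9%, against 28.9% of all genes) and 6 in OCI-LY1 (16.2%, against 22.4%). The Src-family kinases were divided between the lines. FYN was at 142, 142 and 144 CPM against 2.28, 11.1 and 2.95 CPM, with OCI-LY1 replicate 2 the highest of its group, whereas LCK was at 7.56, 7.35 and 6.29 CPM against 72.8, 109 and 68.1 CPM. BLK and LYN differed less than 2-fold. The brake PTPN6 (SHP-1), a tyrosine phosphatase, was higher in Karpas422 at 149.5, 150.3 and 55.7 CPM against 4.03, 4.92 and 13.7 CPM, with Karpas422 replicate 3 the lowest of its group. OCI-LY1 was higher in the adaptor LAT2 (1.75, 2.06 and 1.15 against 43.3, 61 and 31.9 CPM), the PI3-kinase subunit PIK3CD (38.6, 33.1 and 38.4 against 103, 98 and 108 CPM) and the adaptor BANK1 (37.7, 40.7 and 40.1 against 103, 104 and 93.8 CPM). The core kinase SYK and the phosphatase PTPRC (CD45) were not called, at means of 256 and 294 CPM for SYK, with a log2 difference of -0.20 (95% interval from -0.49 to 0.08).

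Of 17 Toll-like receptors and adaptors tested 8 were higher in Karpas422 (47.1%, against 28.9% of all genes) and 2 in OCI-LY1. TLR7 and TLR9, the endosomal receptors for RNA and DNA, were at 7.05, 3.1 and 3.94 CPM against 0.114, 0.026 and 0.0498 CPM and at 96.2, 102 and 113 CPM against 24.5, 13.6 and 16 CPM. The kinase IRAK1 was at 203, 188 and 248 CPM against 87.6, 69.5 and 64.5 CPM, and its relative IRAK2 was the reverse, at 0.291, 0.203 and 0.176 CPM against 33, 42.8 and 34.1 CPM. MYD88, the shared adaptor, was not called, at means of 36.2 and 30.2 CPM.

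Of 32 tested genes of the p53 pathway and cell-cycle inhibitors 15 were higher in OCI-LY1 (46.9%, against 22.4% of all genes) and 2 in Karpas422. The pathway's targets SESN1 and GADD45A were at 2.25, 2.9 and 2.34 CPM against 34.4, 25.2 and 30.9 CPM and at 5.54, 7.28 and 9.7 CPM against 64.1, 70 and 83.3 CPM. The cell-cycle inhibitor CDKN1A (p21) was at 4.43, 6.2 and 4.78 CPM against 29.8, 47.5 and 17.7 CPM. MDM2, a ubiquitin ligase, was at 33, 32.5 and 34.6 CPM against 135, 93.2 and 76.4 CPM. The groups did not overlap in any of these 4 genes, as in 5887 of all 5961 called genes. RB1, the gatekeeper of S phase, was the reverse at 109, 126 and 104 CPM against 6.59, 7.21 and 5.93 CPM (log2 difference 4.08 ± 0.13). ATM, CDKN1B and CDK6 were not called. The genotypes of the lines were not read from the data.

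Apoptosis genes differed mostly within the BCL2 family. Of 29 tested genes 6 were higher in Karpas422 (20.7%, against 28.9% of all genes) and 9 in OCI-LY1 (31.0%, against 22.4%). BCL2, which keeps mitochondria intact, was at 138, 152 and 119.5 CPM against 443, 628 and 816 CPM (log2 difference -2.16 ± 0.22), and its relative BCL2A1 at 0.0844, 0.0709 and 0.0836 CPM against 2.13, 2.23 and 2.51 CPM. The pro-apoptotic members were also higher in OCI-LY1, in 5 of 10 tested, with BMF at 6.11, 9.38 and 3.51 CPM against 128, 204 and 143 CPM. BIK was at 0.216, 0.233 and 0.223 CPM against 15.2, 14.7 and 14.8 CPM. HRK was at 1.46, 1.63 and 1.64 CPM against 30.6, 42 and 24.1 CPM. Karpas422 was higher in BCL2L2 (BCL-W), at 34.9, 37.3 and 29.7 CPM against 1.91, 4.56 and 4.37 CPM, in MCL1, at 282, 333 and 268 CPM against 165, 158 and 193 CPM, and in the TRAIL receptor TNFRSF10B, at 129, 153 and 113 CPM against 21.1, 33 and 27.1 CPM. Of 40 genes of cell cycle and DNA replication, none was higher in Karpas422 and 11 in OCI-LY1 (27.5%, near the 22.4% of all genes), and without OCI-LY1 replicate 1 these counts were 3 and 6, and 7 were higher in OCI-LY1 without Karpas422 replicate 2. The replication genes GINS2, MCM2 and MCM7 led, with GINS2 at 13.6, 9.58 and 15.2 CPM against 64.5, 65 and 46.5 CPM. MCM2 was at 107, 77.5 and 102 CPM against 268, 242 and 209 CPM. TOP2A and MKI67 were not called.

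Of 26 chromatin regulators of lymphoma tested 11 were higher in Karpas422 (42.3%, against 28.9% of all genes) and 4 in OCI-LY1 (15.4%, against 22.4%). TET1, a DNA demethylase, was at 2.56, 2.93 and 2.35 CPM against 0.3, 0.476 and 0.557 CPM. EED, a partner of EZH2, was at 95.9, 77.9 and 108 CPM against 27.2, 21.5 and 21.1 CPM. KMT2D, a histone methyltransferase of enhancers, was at 202, 228 and 187 CPM against 75.1, 87.3 and 79.3 CPM. The DNA methyltransferase DNMT3B (0.638, 0.638 and 1.2 against 6.65, 7.13 and 5.02 CPM) and the deacetylase HDAC9 (2.35, 2.85 and 0.687 against 33.3, 10.6 and 12 CPM) were higher in OCI-LY1. MYC was not called, at means of 262 and 225 CPM and a log2 difference of 0.22 (95% interval from -0.06 to 0.50), while its antagonist MXI1 was at 10.2, 8.95 and 9.87 CPM against 59.4, 66.4 and 73.8 CPM. Of 34 HOX and clustered protocadherin genes 12 were tested and all were called, 11 higher in Karpas422 and 1 in OCI-LY1, with 4 entering only through Karpas422. PCDHGC3 was at 41.7, 44 and 41.2 CPM against 1.78, 1.96 and 2.71 CPM and the position-setting factor HOXB4 at 4.5, 4.12 and 5.21 CPM against 1 read in OCI-LY1, while HOXA10 was at 0.0187, 0.081 and 0 CPM against 1.33, 1.44 and 1.38 CPM. Reads of the protocadherin gamma genes, which share exons, could be split between them. Only 3 of 46 cancer-testis genes were tested: MAGEA1 was at 30.3, 23.3 and 43.4 CPM against 0, 0.104 and 0.00995 CPM. PRAME was at 0.178, 0.152 and 0.297 CPM against 85.8, 88.8 and 110.1 CPM. CTAGE1 was at 1.12, 1.17 and 1.13 CPM against 0.0931, 0.355 and 0.179 CPM.

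Mitochondrial genes are given because the paper describes the OXPHOS subtype by high expression of oxidative phosphorylation genes. A comparison with 1 other line, in another medium, cannot test whether Karpas422 belongs to that subtype. Few listed nuclear genes of the respiratory chain and ATP synthase were higher in Karpas422 than in OCI-LY1. Of 78 genes tested 2 were higher in Karpas422 (2.56%, against 28.9% of all genes) and 19 in OCI-LY1 (24.4%, against 22.4%), with a median log2 difference of -0.20. Without OCI-LY1 replicate 1, which had the highest summed level of the list, the counts were 3 and 13 and the median -0.09. Complex I had 1 of 38 higher in Karpas422 and 8 in OCI-LY1, complex II 2 of 4 in OCI-LY1, complex III 4 of 9, complex IV 3 of 11 and ATP synthase 1 and 2 of 16. SDHD, a membrane anchor of complex II, was at 16.1, 14.6 and 17.7 CPM against 55.7, 45.2 and 43.8 CPM and NDUFA13 of complex I at 54.6, 51.6 and 52.8 CPM against 134, 107 and 137 CPM. ATP5C1, the gamma subunit of ATP synthase, was at 96.7, 99.2 and 101 CPM against 53.2, 47.6 and 40.9 CPM and NDUFB8 of complex I at 61.1, 57.4 and 50 CPM against 37.7, 32.5 and 30.6 CPM. ATP5B, the catalytic subunit, was not called, at means of 519 and 405 CPM. Neither respiration nor protein was measured in these files.

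Enzymes of the TCA cycle and of glutamine entry, where SIRT3 acts, were higher in Karpas422 for 5 of 38 tested (13.2%, against 28.9% of all genes) and in OCI-LY1 for 10 (26.3%, near the 22.4% of all genes), with 3 higher in Karpas422 without its replicate 1 or without OCI-LY1 replicate 3. GLUD1, glutamate dehydrogenase, a SIRT3 substrate that feeds glutamate into the cycle, was at 37, 31.6 and 43 CPM in Karpas422 and 50.3, 55.3 and 58.8 CPM in OCI-LY1. Its groups did not overlap, but the log2 difference of -0.56 ± 0.14 (limma adjusted p = 0.0064) was under the 1.5-fold limit. The near-identical GLUD2 was called, at 8.68, 7.52 and 10.2 CPM against 12.3, 13.7 and 14.6 CPM, and reads could be split between the pair. GOT1, a transaminase, was at 113, 149.8 and 103 CPM against 20.3, 32.9 and 13.5 CPM. GLUL, glutamine synthetase, was at 0, 0.0101 and 0.0278 CPM against 8.89, 9.27 and 10.3 CPM. Karpas422 had nearly no GLUL reads, and its medium was the one with L-glutamine named as an addition, so the part of the medium cannot be told apart from that of the line. PDK2 and PDK3, kinases that switch off pyruvate dehydrogenase, were higher in OCI-LY1, with PDK3 at 6.25, 6.36 and 12 CPM against 43.1, 35 and 49.9 CPM and PDK2 at 1 read in Karpas422 and 4.89, 7.81 and 7.09 CPM in OCI-LY1. OGDHL and the cycle enzyme OGDH were higher in OCI-LY1 as well, with OGDHL at 0.666, 0.516 and 0.724 CPM against 3.81, 4.2 and 2.65 CPM. Of the other sirtuins SIRT1 was higher in Karpas422 (51.1, 66 and 49.3 against 28.5, 42.3 and 26.7 CPM) and SIRT2 (11.8, 13.7 and 11.3 against 21.6, 21.4 and 21 CPM) and the mitochondrial SIRT5 (8.67, 9.45 and 10.4 against 14.8, 21.6 and 19.3 CPM) in OCI-LY1. In fatty acid oxidation 2 of 21 tested genes were higher in Karpas422 (9.52%, against 28.9% of all genes). In OCI-LY1 5 were higher (23.8%, near the 22.4% of all genes), among them ECI2 (3.51, 2.88 and 4.03 against 21.4, 15.4 and 16 CPM) and HADH (16.6, 13.2 and 19.9 against 78, 62 and 62.7 CPM).

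Glycolysis showed 8 of 26 tested genes higher in each line (30.8%), near the 28.9% and 22.4% of all genes. The glucose transporters differed in kind, with SLC2A3 (GLUT3) at 13.1, 10.3 and 7.07 CPM in Karpas422 against 0, 0.0346 and 0.189 CPM. SLC2A5, the fructose transporter, was at 9.99, 6.22 and 20.5 CPM against 105, 75.9 and 85.7 CPM in OCI-LY1. The lactate transporter SLC16A3 and the regulator PFKFB2 were at 3.89, 3.19 and 12.6 CPM and 24.7, 38.3 and 34 CPM in OCI-LY1, and at 0.15, 0.162 and 0.279 CPM and 0.103, 0.081 and 0.102 CPM in Karpas422. GAPDH was called higher in Karpas422, at 2285, 1854 and 1960 CPM against 986, 642 and 919 CPM, and ENO1 was not called. In sterol and fatty acid synthesis 12 of 36 tested genes were higher in OCI-LY1 (33.3%, against 22.4% of all genes) and 3 in Karpas422 (8.33%, against 28.9%). FADS2, a desaturase, was at 80.3, 60.2 and 73.8 CPM against 323, 177 and 291 CPM. LSS, which closes the sterol rings, was at 44.1, 38.5 and 41 CPM against 131, 72.6 and 142 CPM, while NR1H3, the sterol-sensing receptor LXR alpha, was at 5.78, 5.58 and 5.53 CPM against 1.17, 1.17 and 0.816 CPM. Of 9 metallothioneins only 3 were tested, 2 of them only through Karpas422, where such genes almost had to be called. All 3 were higher in Karpas422 (against 28.9% of all genes), led by MT2A at 77.2, 47.7 and 60.1 CPM against 2.54, 2.05 and 1.37 CPM. The antioxidant genes HMOX1 (0.225, 0.425 and 0.232 against 16.4, 9.72 and 11.3 CPM) and SRXN1 (0.891, 0.79 and 1.24 against 22.3, 16.7 and 16.2 CPM) were higher in OCI-LY1.

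ATF4 is the transcription factor that cells raise when amino acids run short, and its targets import amino acids, make serine and charge tRNA. Here OCI-LY1 replicate 2 stood apart. The list summed to 9005 CPM in that library and to 3666 and 3284 CPM in the other OCI-LY1 libraries, and to between 8896 and 9329 CPM in Karpas422, and in 47 of 53 tested genes replicate 2 was the highest of its group, as in 39.3% of all genes. ATF4 was at 329, 372 and 278 CPM in Karpas422 and 152, 326 and 129 CPM in OCI-LY1, a log2 difference of 0.81 ± 0.32 that was not called (limma adjusted p = 0.051), and of 1.21 ± 0.17 without OCI-LY1 replicate 2, which was (limma adjusted p = 0.00041). Over the list 23 of 53 tested genes were higher in Karpas422 and 6 in OCI-LY1, with 35 and 6 without OCI-LY1 replicate 2, 13 and 6 without either of the other OCI-LY1 libraries, 15 or 16 and 6 without any 1 Karpas422 library, 12 and 6 with edgeR and 10 and 6 with DESeq2 on recovered reads. INHBE, a secreted activin chain, was at 58.4, 60.3 and 47.3 CPM against 0.103, 11.6 and 0.458 CPM. CHAC1, which breaks down glutathione, was at 67.4, 59.3 and 85.1 CPM against 1.99, 67.2 and 2.23 CPM. In CHAC1 OCI-LY1 replicate 2 lay within the Karpas422 range. DDIT3 (CHOP) was at 75, 114 and 54 CPM against 4.38, 29.9 and 5.87 CPM. WARS, tryptophanyl-tRNA synthetase, was at 545, 674 and 333 CPM against 40.8, 244 and 26.7 CPM. The transporter SLC7A5 was at 735, 703 and 839 CPM against 85.5, 374 and 56.5 CPM and the folate enzyme MTHFD2 at 625, 560.3 and 641 CPM against 109, 306 and 97.5 CPM. In each of these genes OCI-LY1 replicate 2 was the library of that line nearest to Karpas422. PSAT1, the second enzyme of serine synthesis, was at 214, 182 and 244 CPM against 42.7, 250.2 and 33.6 CPM. Its call changed with that library, from a log2 difference of 1.57 (limma adjusted p = 0.056) to 2.48 (limma adjusted p = 6.1e-06). The genes higher in OCI-LY1 were so in all of its libraries. CBS, of the transsulfuration pathway, was at 2.42, 2.83 and 2.69 CPM against 135, 257 and 84.3 CPM. PYCR1, of proline synthesis, was at 0.741, 1.29 and 0.139 CPM against 7.68, 42.6 and 9.82 CPM. PHGDH, the first enzyme of serine synthesis, was at 38.2, 36.6 and 32 CPM against 100.1, 295 and 78.5 CPM. Replicate 2 was the highest OCI-LY1 library for these genes too. In all, 43 genes were over 4-fold above both other libraries in OCI-LY1 replicate 2, against between 0 and 10 in each other control library. What set this library apart was not tested.

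**Figure D5:**
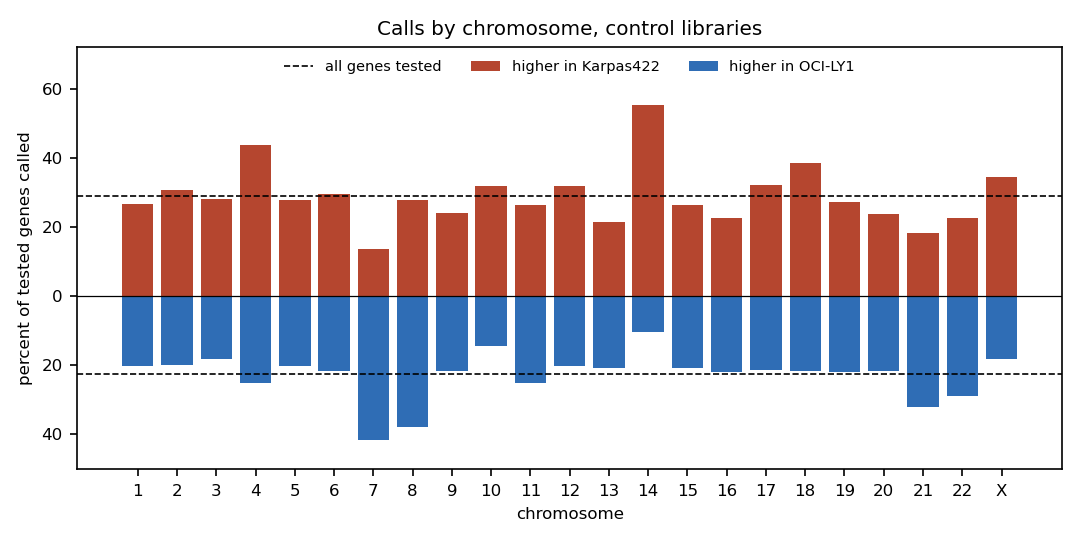
Percent of tested genes on each chromosome called higher in Karpas422 (red, upward) and in OCI-LY1 (blue, downward), with dashed lines at the shares over all genes tested (28.9% and 22.4%). Chromosome 14 stands highest in red and chromosome 7 lowest in blue.

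The calls were unevenly spread over the genome. Positions were those of GENCODE genes on hg19, available for 11345 of the genes tested, and this description was chosen after the data were seen. On chromosome 14 212 of 383 tested genes were higher in Karpas422 (55.4%, against 28.9% of all genes) and 40 in OCI-LY1, with a median log2 difference of 0.69. On chromosome 7 the reverse held, with 224 of 538 genes higher in OCI-LY1 (41.6%, against 22.4%) and 74 in Karpas422, and a median of -0.43. Chromosome 4 had 43.8% higher in Karpas422 and chromosome 8 38.0% higher in OCI-LY1. In windows of 5 Mb with at least 10 tested genes, of which there were 394, the highest medians lay in 2 neighbours on chromosome 11. From 85000001 to 90000000, which holds EED, 10 of 12 genes were higher in Karpas422 (median 1.63), and from 90000001 to 95000000 14 of 15 were (median 1.80). Farther along the same chromosome, from 110000001 to 115000000, 17 of 23 genes were higher in OCI-LY1 (median -1.51), SDHD among them. The lowest median was that of chromosome 2 from 160000001 to 165000000, which holds IFIH1, at -2.47 with 6 of 11 genes higher in OCI-LY1. On chromosome 8 the windows differed in direction. Between 20000001 and 25000000, which holds TNFRSF10B, 19 of 25 genes were higher in Karpas422 (median 1.54), and between 145000001 and 150000000 29 of 40 were higher in OCI-LY1. The chromosome 14 and chromosome 7 medians were 0.58 and -0.58 between the shSIRT3-1 libraries and 0.68 and -0.47 between the shSIRT3-2 libraries, which share no library with the controls. Of the genes described above SERPINA9, WARS, TRAF3 and BCL2L2, all higher in Karpas422, lie on chromosome 14, as do TCL1B and TC2N, which were higher in OCI-LY1. Gene copy number was not measured here, and its part in these differences was not tested.

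The difference between lines was also read in the libraries of the SIRT3 hairpins. The lines differed in 5855 of 11618 genes (50.4%) with shSIRT3-1 and in 5793 of 11496 (50.4%) with shSIRT3-2. Of 5674 genes called in the controls and tested in all 3 comparisons, 4208 (74.2%) were called in the same direction with both hairpins, 2291 of them higher in Karpas422 and 1917 in OCI-LY1, and 15 were called in the opposite direction with at least 1. Of all 5961 calls in the controls 4693 were repeated with shSIRT3-1 and 4677 with shSIRT3-2, which is the background of the counts that follow. Of the 17 MHC class II calls 16 were repeated with each hairpin, of the 38 interferon-stimulated calls 38 and 36 and of the 17 p53 pathway calls 16 with each. Of the 29 amino acid response calls 23 and 20 were repeated, no more than the background. The B-cell identity calls (7 higher in Karpas422 and 3 in OCI-LY1) were repeated for 7 and 4. A test of the line difference against the hairpin, over 18 libraries, called 1181 of 12131 genes (9.74%). That count was 21, 625 and 261 when replicate 1, 2 or 3 of every group was left out. It called 784 of the 5961 genes that differed in the controls (13.2%) and 334 of the 5660 that did not (5.90%). The control libraries that sorted the genes are also part of this test. The gap between these shares is therefore no result about genes that differ in the controls. XBP1 was among them, with a log2 difference of 2.14 in the controls, 0.71 with shSIRT3-1 and 0.15 with shSIRT3-2.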

How the data were processed

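RNA was measured in 3 shCTRL libraries each of Karpas422 and OCI-LY1, prepared with a TruSeq kit. The authors aligned paired reads to hg19 with STAR and counted RefSeq genes with Rsubread; whether the counting used strand is not given in the sources used here. The deposited values, labelled FPKM, are CPM: every value in the 6 libraries lies within 2.1e-09 of a whole multiple of the value of 1 read, which does not depend on gene length. The total that the authors divided by is not named in the sources used here, and the listed genes hold between 41.9% and 45.5% of it. Each library holds between 42137546 and 50147928 reads on genes, so 1 read is worth about 0.01 CPM. Intervals and lower bounds from reads (95%, and 3 reads as the floor) cover counting error only.

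Genes with at least 1 CPM in at least 3 of the 6 libraries were tested with limma 3.58.1 (R 4.3.3, empirical Bayes with a trend) on log2(CPM + 0.1), which understates the fold of low genes, and called where the fold passed 1.5 and the adjusted p (Benjamini-Hochberg) was under 0.05. The scripts were tested on simulated data. Results were recomputed with pseudocounts of 1 and 0.01, without a filter, with quantile and median-ratio scaling, without the trend, with all 9 control or all 27 libraries in the fit, the replicate number as a block, a fold above 2, each library left out, and, on the recovered whole reads, edgeR 4.0.16 (TMM, quasi-likelihood test), which called 5887 genes, and DESeq2 1.42.0, which called 5957.

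The lines, gene lists and tests were chosen with earlier results of these data known. Named genes were SIRT3, GLUD1 and ATF4, the cell type markers, the 12 largest folds in each direction among calls without overlap, the 6 highest genes in each direction at 0 in one line and at 10 CPM or more in the other, the 6 most abundant calls of at least 4-fold in each direction, and in each list up to 4 calls in each direction and the 3 most abundant members not called; small RNAs, unnamed loci and sex-linked marker genes were left out. Other genes (among them BCL6, CIITA, CD74, B2M, CDKN1A, MDM2, PIM2, PSAT1, IL4R, IL2RG, IFIT1, IFIT3, MCL1, MYD88, RFXAP and GAPDH) and the account by chromosome were chosen after their values were seen. Promoter windows came from RefSeq (GRCh38.p14) by symbol. Some genes that these rules name are not reported here.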

Additional observations from a re-analysis of the deposited data

Results flagged for a closer look

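Among the genes named, 33 of 226 tested had a difference between the lines that changed with the hairpin, by the limma F test on both interaction terms of line and hairpin over 18 libraries, against 9.74% of all 12131 genes. Most named genes were chosen by their difference in the control libraries, which this test uses again. The nearer background is the 13.2% of genes called in the controls, so the count is no result about the named genes. The values below are the log2 difference (Karpas422 minus OCI-LY1) in the control libraries, with shSIRT3-1 and with shSIRT3-2, followed by the adjusted p of this test, and no explanation was weighed. The genome-wide count fell from 1181 to 21, 625 or 261 when replicate 1, 2 or 3 of every group was left out. Each group has 3 libraries, too few for a test of single libraries that stand apart.

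In 14 genes the difference was wider with both hairpins than in the controls. Above 0 in the controls were BST2 (0.57, 0.65 and 1.71, adjusted p = 0.036), MAP3K14 (0.85, 1.89 and 1.60, adjusted p = 0.0049), MCL1 (0.77, 1.44 and 1.53, adjusted p = 0.023) and STAT2 (0.88, 1.36 and 1.86, adjusted p = 0.049). Also above 0 in the controls were TAP1 (1.85, 2.46 and 3.02, adjusted p = 0.04) and TAP2 (0.53, 0.69 and 1.22, adjusted p = 0.027). Below 0 in the controls were BACH2 (-2.72, -3.66 and -4.93, adjusted p = 0.00052), BANK1 (-1.34, -2.96 and -2.14, adjusted p = 0.0023), CBS (-5.71, -7.26 and -8.09, adjusted p = 0.0098) and CDKN1A (-2.50, -4.08 and -6.10, adjusted p = 0.0012). Also below 0 in the controls were HRK (-4.23, -4.34 and -5.86, adjusted p = 0.01), ID3 (-5.42, -6.82 and -5.70, adjusted p = 0.031), ITGAL (-5.52, -5.68 and -7.76, adjusted p = 0.0026) and SIRT2 (-0.80, -1.57 and -0.95, adjusted p = 0.041).

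In 11 genes it was narrower with both hairpins, and in 2 of these the sign changed, for PIM2 with shSIRT3-1 and for PAX5 with shSIRT3-2. Above 0 in the controls were HLA-DQA1 (9.22, 7.81 and 8.63, adjusted p = 0.017), MR1 (7.45, 6.24 and 7.13, adjusted p = 0.026), PAX5 (1.07, 0.66 and -0.085, adjusted p = 0.0019) and PTPRT (8.63, 8.18 and 7.13, adjusted p = 0.027). Also above 0 in the controls was XBP1 (2.14, 0.71 and 0.15, adjusted p = 0.0093). Below 0 in the controls were CADM1 (-8.43, -6.71 and -8.25, adjusted p = 0.0013), ERAP1 (-0.84, -0.61 and -0.14, adjusted p = 0.019), H1F0 (-10.95, -9.65 and -9.52, adjusted p = 0.05) and LCK (-3.51, -2.14 and -2.99, adjusted p = 0.05). Also below 0 in the controls were PIM2 (-1.89, 0.22 and -0.14, adjusted p = 0.0019) and UCP2 (-2.58, -1.96 and -1.86, adjusted p = 0.05).

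In 7 genes the hairpins lay on either side of the controls. Above 0 in the controls were IFI44 (7.49, 4.76 and 7.94, adjusted p = 0.023), MAMLD1 (9.75, 9.06 and 10.18, adjusted p = 0.04), MYBPH (10.09, 9.64 and 10.79, adjusted p = 0.037) and NEK6 (6.0, 5.42 and 6.27, adjusted p = 0.028). Also above 0 in the controls was TLR9 (2.56, 2.13 and 3.14, adjusted p = 0.04). Below 0 in the controls were ICOSLG (-4.50, -2.36 and -6.25, adjusted p = 0.0016) and PFKFB2 (-7.35, -6.67 and -8.01, adjusted p = 0.042). BCL2A1, at -3.73 in the controls, had too low a level for a test within the libraries of either hairpin (limma adjusted p = 0.033).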

How the results depend on the processing

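Of the 225 genes named and tested besides SIRT3, 197 were called, and 189 of these kept their call and direction under every alternative. Calls were lost by 7 genes in at least 1 fit without a library and by 5 under another alternative, and MX2, IFITM2, OAS3, ISG20, IRF2, GLUD2, CD58 and CHAC1 are the genes concerned, while GLUD1, ATF4 and PSAT1 were called under some alternatives. The number of genes called stayed within 1.5 times of 5961 except at a fold above 2, where it was 3805, with 2151 higher in Karpas422 and 1654 in OCI-LY1. Without 1 library it ranged from 5724 to 6045, and without the filter it was 8136. SIRT3 was not called under any alternative, with log2 differences from -0.33 (DESeq2 1.42.0) to -0.081 (without OCI-LY1 replicate 2). Of the genes not called, 3 changed sign near 0 when 1 library was left out, CD79A (-0.33 to 0.013), EZH2 (-0.16 to 0.057) and MYD88 (-0.034 to 0.38). The number of genes whose line difference changed with the hairpin, 1181, was 21 to 625 without 1 replicate number; the cause was not tested. The sources used here do not say whether the replicate numbers pair the libraries, and they were not taken as pairs: deviations of same-numbered libraries correlated at 0.161, 0.232 and 0.056, best with their own number for Karpas422 replicates 1 and 2 and not for replicate 3 (0.082 with another number), a hint from the data and not from the design. With the replicate block 6038 genes were called between the lines and 1539 changed with the hairpin. Depth limits genes near 0, where 1 read is about 0.01 CPM and a fold depends on the pseudocount.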
